A study of Homo sapiens with 6 samples.

Results

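The proteins of the cytosolic ribosome are encoded by a large set of housekeeping genes, and 68 of them had a row of their own and enough signal in the deposited expression table: 40 of the large subunit and 28 of the small subunit. They were chosen by symbol (RPL, RPLP and RPS names, RPSA and FAU, with no second gene joined to the row) and by reaching 1 FPKM in 3 or more of the 6 libraries, out of 18268 rows in all. FPKM counts fragments per transcript length and library size, so levels of different genes are compared here per length. Of 71 rows with a matching symbol, 3 were below that value. RPL10L and RPL39L, paralogs of RPL10 and RPL39, were listed at 0 in every library, and RPL3L reached 0.19 FPKM in KO 3 and was listed at 0 in the other 5. On the other side of the threshold the lowest member, RPS29, had a mean of 8.34 FPKM, so no member lay near it. A further 10 ribosomal protein genes, among them FAU, RPL13A, RPL22, RPL26 and RPS10, stood in rows joined with a neighbouring gene and are given apart. Of the 47 proteins listed for the large subunit, 40 are members and 6 are in joined rows. Of the 32 listed for the small subunit, 28 are members and 4 are in joined rows.

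The cell line, MIA PaCa-2, was established from a human pancreatic carcinoma. Total RNA was sequenced from 3 libraries of cells labelled LINC00901 KO, with a knockout of a long non-coding RNA gene, and from 3 libraries of vector control cells labelled LCV2, grown in the same medium with bovine and horse serum; no other treatment is given. The labels state neither how the knockout was made nor whether it is 1 clone, and not whether the libraries came from separate cultures, so p-values measure the spread between these libraries, which may be technical. No row named LINC00901, so the knockout was not checked here and every direction rests on the labels. The labels call the cells epithelial. KRT18 stood at 28.8 to 79.4 FPKM and KRT19 at 12.7 to 39.3, while EPCAM reached at most 0.14 and CDH1 at most 0.02, and VIM, a mesenchymal filament gene, stood at 459.5 to 675 FPKM. Leukocyte markers reached at most 0.68 FPKM, and of the fibroblast markers DCN was listed at 0 while COL1A2 stood at 24.7 to 56.2. FPKM summed to between 123107 and 134389 per library, and 9153 to 9612 rows reached 1 FPKM. Depth is unknown, so the number of libraries and their spread set the precision. The libraries did not sort by label alone. Across the 9624 tested genes, which are not independent replicates, the correlation of vector control 1 was higher with KO 3 (r = 0.932) than with vector control 2 (r = 0.904), while vector control 2 and 3 gave r = 0.979. KO 1 was somewhat closer to KO 3 (r = 0.935) than to vector control 3 (r = 0.921), while KO 2 and 3 gave r = 0.97. Results are therefore also given without vector control 1 and KO 1.

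A ribosome holds 1 copy of nearly every ribosomal protein, the stalk proteins apart, and cells make these proteins in balance, since an unassembled excess is degraded. Most of the mRNAs carry a terminal oligopyrimidine (TOP) tract, a C followed by further C or T bases at the very 5′ end, which couples their translation to mTOR signalling through the binding protein LARP1. Their transcription is high in growing cells and is among the processes that MYC supports. Free RPL5 and RPL11 bind MDM2, a ubiquitin ligase, when ribosome assembly fails.

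The tract is the feature these genes share that the symbol rule did not use. It is shown here for the members that the values below turn on: 3 with low and 3 with high fold changes, the most abundant, and the 4 whose libraries differed most. The search found no match in RPS15, whose window ends in C and T bases more than 5 bases from the first listed start. Other starts were not searched, so a gene without a match may still carry the tract. Each window holds 15 bases before and 15 after the first start that RefSeq lists, on GRCh38.p14, read 5′ to 3′. Capitals mark at least 5 C or T in a row, read from a C within 5 bases of that start, and C or T bases directly before that C, as in RPSA, RPL7A and RPL29, are not marked.
RPS21 (chr20:62387088-62387117, plus strand): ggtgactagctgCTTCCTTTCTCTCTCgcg
RPSA (chr3:39406705-39406734, plus strand): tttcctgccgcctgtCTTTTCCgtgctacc
RPL35 (chr9:124861943-124861972, minus strand): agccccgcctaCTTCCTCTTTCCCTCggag
RPLP0 (chr12:120201097-120201126, minus strand): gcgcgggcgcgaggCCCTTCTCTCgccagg
RPLP1 (chr15:69452803-69452832, plus strand): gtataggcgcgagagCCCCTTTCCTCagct
RPL28 (chr19:55385917-55385946, plus strand): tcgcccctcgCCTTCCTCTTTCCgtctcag
RPL7A (chr9:133348203-133348232, plus strand): ccacaattccCTTTCCTTTCTCTCTCCTCC
RPL29 (chr3:51995881-51995910, minus strand): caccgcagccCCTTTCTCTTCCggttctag
RPL39 (chrX:119791616-119791645, minus strand): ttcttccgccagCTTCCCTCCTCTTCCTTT
RPS25 (chr11:119018329-119018358, minus strand): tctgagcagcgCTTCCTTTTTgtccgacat
RPS15 (chr19:1438381-1438410, plus strand): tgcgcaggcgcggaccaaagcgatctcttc
The deposited table holds no coordinates, so these positions describe the reference only.

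Of the 68 members, 55 had a RefSeq start. Such a stretch, found by the same search in every gene, was present in 26 of 32 large subunit members (81.2%) and in 18 of 23 small subunit members (78.3%), against 22.6% of 7074 tested genes with a listed start and 22.1% of 15843 protein-coding genes. The 2 subunits therefore share it to about the same degree. In the 300 bases around the start (250 before and 50 after, both strands), the ETS-type letters CCGGAAG were found in 10 large and 8 small subunit members (31.2% and 34.8%; tested genes, 21.4%; all protein-coding genes, 14.2%). The E-box CACGTG, the letters that MYC and MAX recognize, was found in 1 member of each subunit (3.12% and 4.35%; tested, 10.7%; all, 8.88%). The YY1-type letters AAGATGGC were found in 3 and 2 members (9.38% and 8.70%; tested, 6.26%; all, 3.91%). The GC box GGGCGG was found in 18 and 13 (56.2% and 56.5%; tested, 73.3%; all, 58.5%) and TATAAA in 3 and 2 (9.38% and 8.70%; tested, 4.85%; all, 9.63%). Overlap between these letters and the tract was not counted. A match is a description of the letters only.

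Ribosomal protein mRNAs were among the most abundant in these cells, and unequal in level. Of the 100 tested genes with the highest mean FPKM, 16 were large and 9 small subunit members, and 59 of the 68 were among the highest 500. The large subunit ran from 14.3 FPKM for RPL14 to 726 for RPL7A, the host of several small nucleolar RNAs, a range of 50.9 times, with a median of 101. The small subunit ran from 8.34 FPKM for RPS29 to 411 for RPS4X, the X-linked copy of its gene, a range of 49.3 times, with a median of 117. Other high members were RPL19 (334 FPKM), RPL8 (296), RPS3A (350.4) and RPS3 (316), and other low ones RPL37 (22.8), RPL34 (25.6), RPS24 (28.04) and RPS15 (34.8). Within 2 times of the subunit's median lay 24 of 40 large and 17 of 28 small subunit members. The order of the genes was kept between libraries: over the 68 members the Spearman correlation of each library with the mean of the (other) vector controls was 0.951 to 0.975, as a description across genes that share these libraries. Annotation touches these levels. In GENCODE 29, 67 of the members have pseudogenes that carry their symbol, a median of 8 and up to 91 for RPL23A, and how reads shared with such copies were assigned is not given, so single levels are uncertain. Across members, mean FPKM had a Spearman correlation of 0.17 with the number of these pseudogenes and of 0.23 with transcript length (n = 68), both weak.

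**Figure D1:**
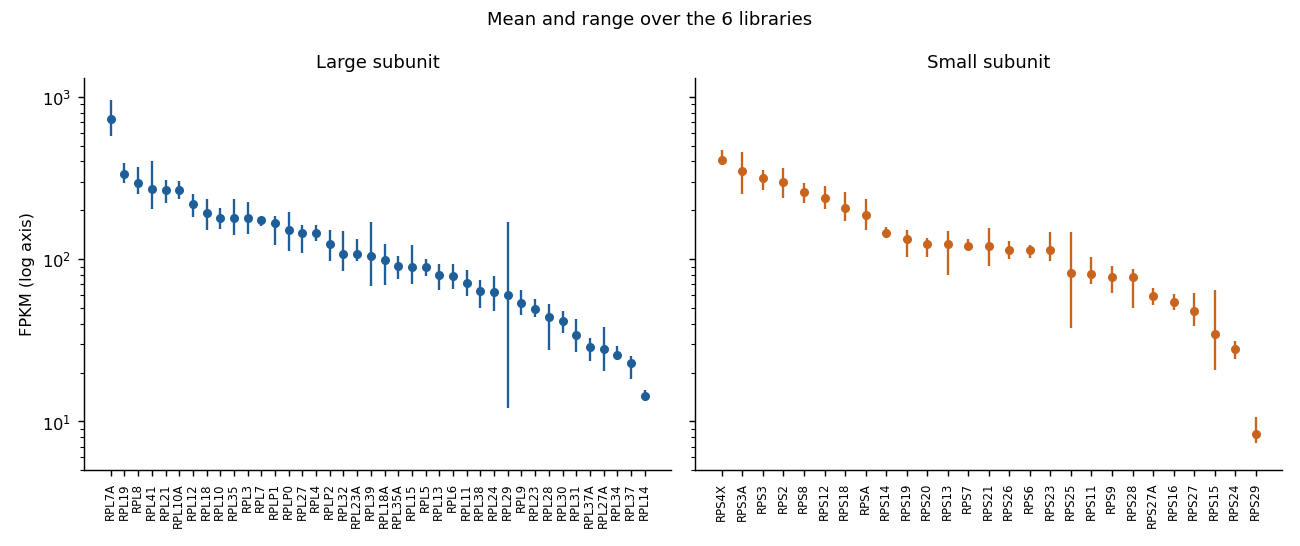
Mean FPKM over the 6 libraries (points) and the lowest to highest library (lines) for 40 large and 27 small subunit members, large subunit left and small subunit right, on a log axis. Means run from 14.3 to 726 FPKM in the large and from 8.34 to 411 in the small subunit, and the line of RPL29 is by far the longest.

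The 2 subunits varied together from library to library, and not by label. Large subunit members gave 3.52, 4.41 and 4.82% of summed FPKM in vector control 1, 2 and 3, and 4.70, 4.003 and 3.76% in KO 1, 2 and 3. Small subunit members made up 2.64, 3.41 and 3.45% in the vector controls and 3.35, 2.84 and 2.81% in the KO libraries. In both subunits vector control 1 was the lowest library, KO 3 and KO 2 came next, and KO 1, vector control 2 and vector control 3 were the 3 highest, so the groups overlapped fully. Group means were 4.25 ± 0.666% and 4.16 ± 0.488% for the large subunit and 3.17 ± 0.458% and 2.999 ± 0.305% for the small subunit, in vector control and KO (SD, n = 3 each). The differences between the groups, -0.10 and -0.17 percentage points, were smaller than the SD within either group. The large subunit's direction was not stable: its difference was 0.19 without vector control 3 and 0.10 without KO 3. The small subunit's difference stayed below 0 when single libraries were left out, from -0.43 to -0.026. With quantile normalization both turned positive, at 0.098 and 0.022. In bulk RNA, fewer cells with a transcript and less of it per cell cannot be told apart.

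Replication-dependent histone genes divided the libraries the same way round, in reverse. Rows with HIST symbols, 62 in all, gave 6.10, 5.05 and 5.09% of summed FPKM in vector control 1, KO 2 and KO 3, the libraries with the lowest ribosomal protein shares. Vector control 2 and 3 and KO 1, the libraries with the highest, had 2.75, 3.17 and 2.94%. Because the libraries fall into separate clusters, no correlation is given, and the part of this division in the results was not tested. It crosses the groups, so each group holds libraries of both kinds.

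**Figure D2:**
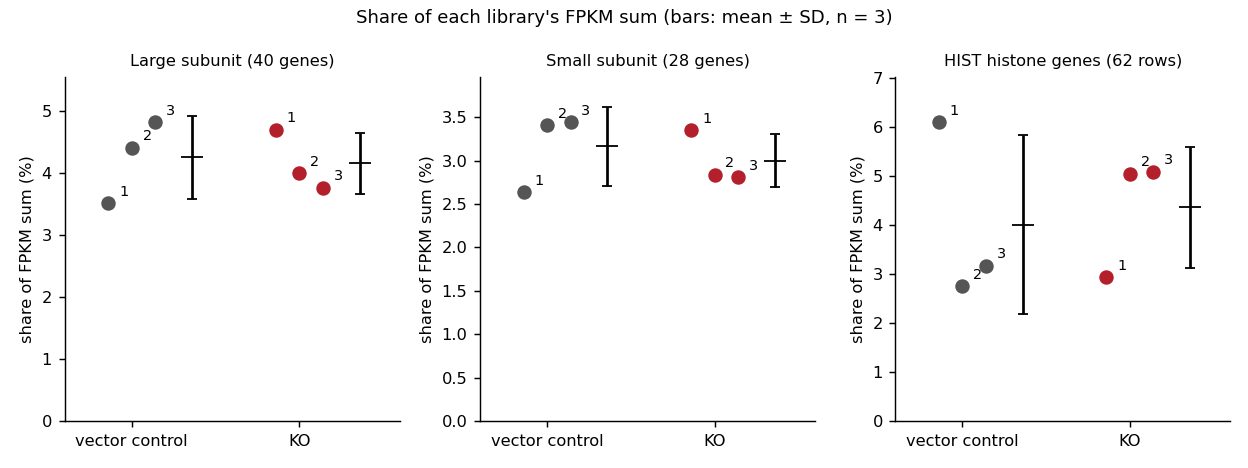
Share of the FPKM sum in each library (points, numbered by replicate) for large subunit members, small subunit members and HIST histone rows, with the group mean ± SD (bars, n = 3). Vector control 1, KO 2 and KO 3 are low in both ribosomal panels and high in the histone panel, at 5.05 to 6.10%.

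The ratio of the subunits had a smaller SD relative to its mean than either share. The summed FPKM of large over small subunit members was 1.34, 1.29 and 1.40 in the vector controls and 1.40, 1.41 and 1.34 in the KO libraries. The groups overlapped, with means of 1.34 ± 0.0540 and 1.38 ± 0.0383 (SD, n = 3 each). RPL7A alone gave 11.4 to 14.7% of the large subunit sum, and the sums of the 2 subunits hold fewer genes than the ribosome has, so the ratio describes these rows and not subunits in the cell.

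Gene by gene, the pattern was shared widely. Relative to each gene's vector control mean on the log2(FPKM + 1) scale, the median of the large subunit stood at -0.26, 0.08 and 0.15 in vector control 1, 2 and 3 and at -0.02, -0.15 and -0.17 in KO 1, 2 and 3. The small subunit stood at -0.24, 0.09 and 0.12, and at -0.02, -0.17 and -0.21. All tested genes stood between -0.03 and 0.09 in the 6 libraries. Vector control 2 and 3 were both above vector control 1 in 35 of 40 large and in 28 of 28 small subunit members, against 38.6% of all tested genes. Vector control 1 was the lowest of the 6 libraries for 29 members (all tested genes, 22.7%) and vector control 3 the highest for 38 (13.9%). KO 1 was below both vector control 2 and 3 in 50 members (35% of all tested genes), whereas KO 2 and 3 were both above vector control 1 in 32 (44.4%); both held at once in 23 members (12.6%). Vector control 2 and 3 were both above all 3 KO libraries in 42 members (19.4%). Among libraries of like histone share, KO 1 was thus below both controls for most members, while KO 2 and 3 were not mostly below vector control 1. Each comparison has a single library on 1 side, so its count follows the level of that library. Members are not replicates, and an effect of the knockout cannot be read from these counts.

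**Figure D3:**
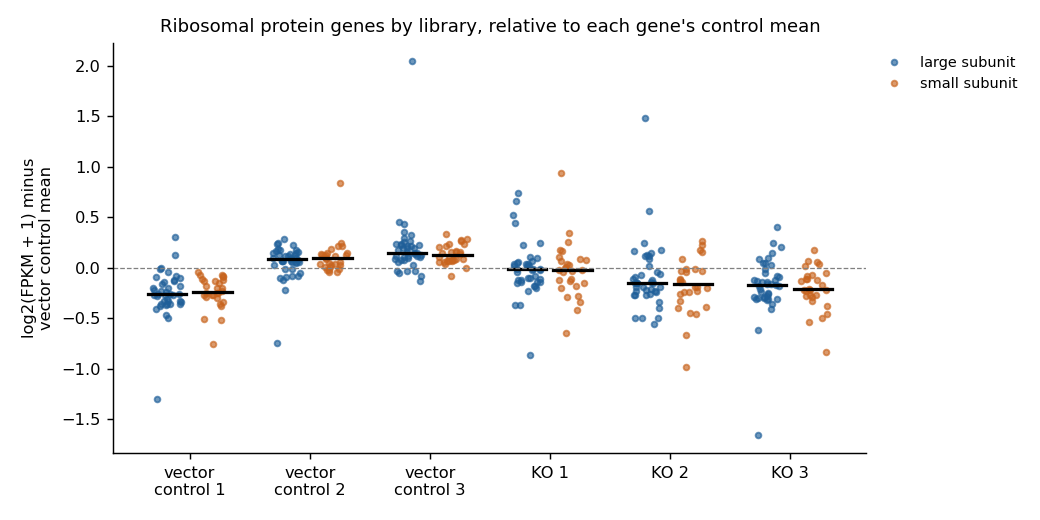
Difference of each member from its own vector control mean, in log2(FPKM + 1), by library, for large (blue) and small (orange) subunit members, with black lines at the medians. The medians lie at -0.26 and -0.24 in vector control 1, above 0 in vector control 2 and 3, and at -0.15 to -0.21 in KO 2 and 3.

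Between the groups, no ribosomal protein gene passed the test. Limma on log2(FPKM + 1), adjusted over all 9624 tested genes by the Benjamini-Hochberg method, called 0 of 40 large and 0 of 28 small subunit members at an adjusted p below 0.05, where 1.35% of all tested genes were called (0.509% or 49 genes higher and 0.842% or 81 lower in KO; with quantile normalization, 31 higher and 99 lower). At an unadjusted p below 0.05 stood 0 large and 2 small subunit members, RPS21 and RPSA, against 17.5% of all tested genes. Log2 fold changes were small: they lay between -0.42 and 0.36 in the large subunit and within 0.5 of 0 in 27 of 28 small subunit members, down to -0.54 for RPS21, with medians of -0.13 and -0.14, and the median of all tested genes was 0.08. Below 0 were 29 of 40 and 22 of 28 members, against 40.7% of all tested genes. With quantile normalization only 21 and 13 were below 0, and the small subunit's median was then 0.01. With median scaling 35 and 24 were below 0, and the medians were -0.22 and -0.23, against -0.0013 over all tested genes. In 9 members every KO library lay below every vector control (5 large, 4 small subunit; 8.35% of all tested genes), and in 0 members every KO library lay above (15.4%).

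**Figure D4:**
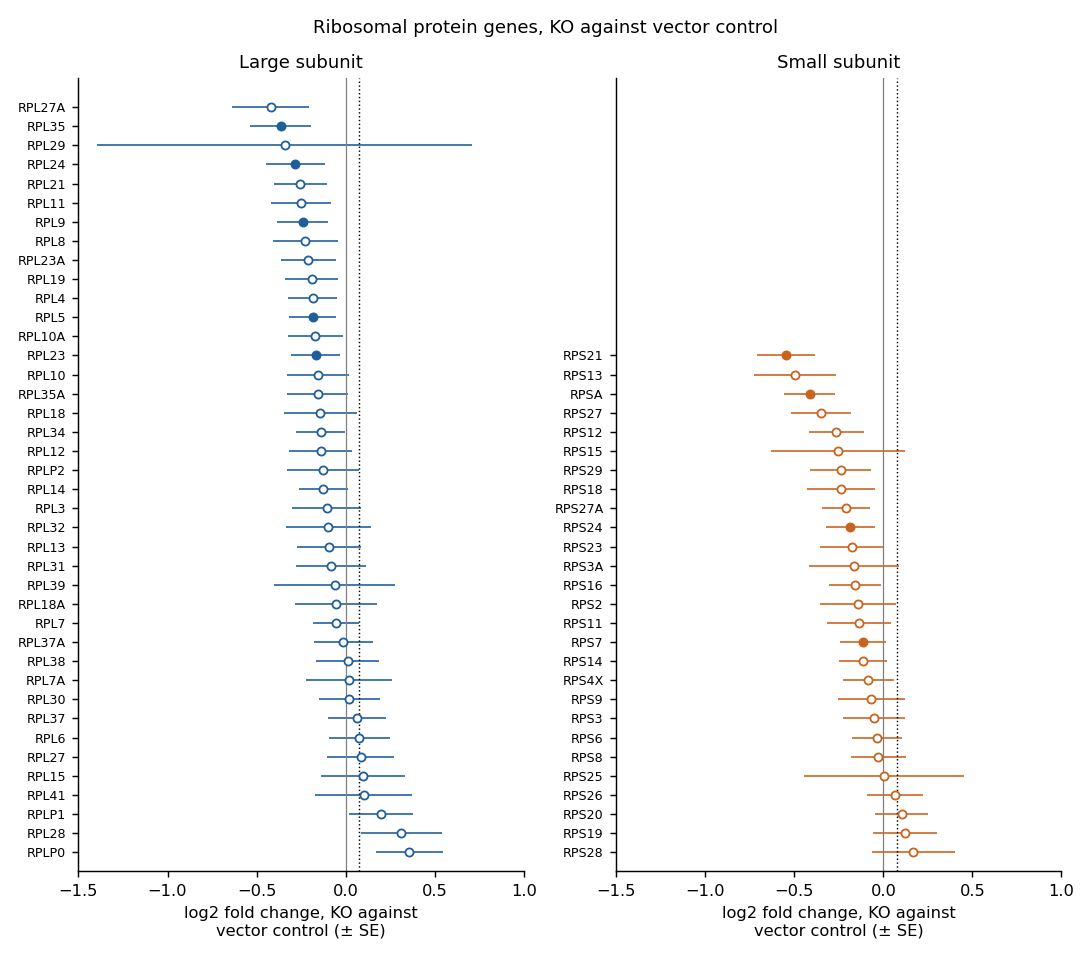
Log2 fold change of 40 large and 27 small subunit members, KO against vector control, with its SE from limma (lines), large subunit left and small subunit right. Filled points are the 9 members whose groups do not overlap, and the dotted line marks the median of all tested genes, 0.08.

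The small subunit held the 2 members closest to the threshold, RPS21 and RPSA, whose products are neighbours on the outer face of the subunit. RPS21 stood at 119, 157 and 153 FPKM across the 3 controls, against 90.2, 103 and 97.4 across the 3 KO libraries. Every KO library was below every vector control, and vector control 1 was the nearest to them (log2 fold change -0.54, SE 0.16, adjusted p = 0.172). RPSA, which encodes the protein also known as the laminin receptor, stood at 196, 234 and 214 FPKM across the 3 controls, against 175, 157 and 151 across the 3 KO libraries (-0.41, SE 0.14, adjusted p = 0.218). The groups did not overlap here either. RPS24 and RPS7, both among the genes mutated in Diamond-Blackfan anaemia, were the other 2 small subunit members without overlap, and their gaps were narrow. RPS24 stood at 28.3, 30.0 and 31.4 FPKM against 24.4, 27.0 and 27.2 (-0.18, adjusted p = 0.521). RPS7 stood at 119, 123 and 133 FPKM against 114, 116 and 116 (-0.12, adjusted p = 0.688).

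In RPS13 and RPS27 the groups overlapped through single libraries. RPS13 stood at 134, 143 and 150.2 FPKM across the 3 controls, against 144, 89.4 and 79.6 in KO 1, 2 and 3, so that KO 1 lay among the controls (log2 fold change -0.50, SE 0.23, adjusted p = 0.320). RPS27, a zinc-binding protein gene, stood at 44.8, 54.7 and 62.2 FPKM against 46.2, 40.6 and 38.6, and KO 1 was above vector control 1 (-0.35, adjusted p = 0.338). RPS12 completed the 5 lowest fold changes of the subunit, at 219, 276 and 283 FPKM against 204, 219.8 and 220.2 (-0.26). Here vector control 1 lay below KO 2 and KO 3.

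Around the mRNA channel, the groups overlapped. RPS2 and RPS3, which line the mRNA entry, had log2 fold changes of -0.14 and -0.05. RPS3 stood at 265, 347 and 357 FPKM across the 3 controls, against 344, 281 and 304 across the 3 KO libraries. RPS6, the target of the S6 kinases, stood at 101, 122 and 123 FPKM and at 113, 112 and 111 (-0.04, SE 0.14), with the KO libraries between the controls. RPS14 and RPS19, of which the loss of a single copy is known from anaemias, had log2 fold changes of -0.12 and 0.12, RPS4X of -0.08, and RPS27A, which encodes ubiquitin fused to a ribosomal protein, of -0.21. RPS28, which lies by the mRNA exit, had a log2 fold change of 0.17, RPS20 of 0.10 and RPS26 of 0.06. RPS28 stood at 50.1, 85.3 and 86.7 FPKM across the 3 controls, against 80.8, 86.7 and 75.5 across the 3 KO libraries, with vector control 1 alone low (adjusted p = 0.746). In the small subunit, the fold change had a Spearman correlation of 0.51 with median transcript length (n = 28 genes from the same libraries). The large subunit did not show this (-0.19, n = 40), and over all 68 members the correlation was 0.14. Correlations were computed for length, pseudogene number, level, spread and fold change. The value of 0.51 was the largest of them, and the others ran from -0.28 to 0.32, so it is a picked value and a description only. The length is a median over annotated transcripts, and which of them these cells express was not checked.

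In the large subunit the lowest fold changes belonged to RPL27A, RPL35, RPL29, RPL24 and RPL21. That of RPL29, whose libraries differed most, was -0.34 with an SE of 1.05 (adjusted p = 0.895), and it turned to 0.68 without vector control 3 and to 0.31 without KO 3. RPL27A stood at 24.6, 34.1 and 38.3 FPKM across the 3 controls, against 28.7, 22.1 and 20.4 across the 3 KO libraries, with KO 1 among the controls (log2 fold change -0.42, SE 0.22, adjusted p = 0.361). RPL35, which lies at the exit of the peptide tunnel, stood at 178, 194 and 236 FPKM against 177, 142 and 151. All KO libraries were lower, KO 1 by less than 1 FPKM (-0.37, SE 0.17, adjusted p = 0.317). RPL24, part of a bridge between the subunits, stood at 63.8, 64.0 and 78.3 FPKM against 61.7, 48.1 and 59.1 (-0.28, adjusted p = 0.416). RPL21 had a log2 fold change of -0.25 (adjusted p = 0.415). RPL9, RPL5 and RPL23 were the other large subunit members whose groups did not overlap, at -0.24, -0.18 and -0.17, with adjusted p of 0.422, 0.514 and 0.571.

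Members around the peptidyl transferase centre, RPL3, RPL4 and RPL10, had overlapping groups, with log2 fold changes of -0.11, -0.18 and -0.16. RPL10, which joins the subunit late, in the cytoplasm, stood at 161, 207 and 203 FPKM across the 3 controls, against 198, 160.4 and 153 across the 3 KO libraries, with KO 1 among the controls. RPL23A, at the tunnel exit, stood at 99.2, 113 and 133 FPKM against 97.6, 98.0 and 101 (-0.21, SE 0.15), and KO 3 was above vector control 1. The 2 MDM2-binding members of the 5S particle, RPL5 and RPL11, were close in fold change. RPL5 stood at 91.9, 99.96 and 92.2 FPKM across the 3 controls, against 87.9, 78.7 and 83.3 across the 3 KO libraries, without overlap. RPL11 stood at 63.6, 83.8 and 85.8 FPKM against 59.6, 69.7 and 64.7 (-0.25, adjusted p = 0.479), where vector control 1 lay inside the KO range. RPL10A and RPL38 had log2 fold changes of -0.17 and 0.01.

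The stalk that recruits the elongation factors held the highest fold change of the large subunit. RPLP0, its base, stood at 112, 155 and 128 FPKM across the 3 controls, against 141, 194 and 173 across the 3 KO libraries. It had the highest log2 fold change of all members, 0.36 (SE 0.19, adjusted p = 0.371), although vector control 2 was above KO 1. RPLP1 stood at 123, 162 and 185 FPKM against 181, 173 and 177 (0.20, adjusted p = 0.615), the 3 KO libraries lying within the control range. RPLP2, the partner of RPLP1, did not share this, at 98.0, 151 and 142 FPKM against 130.04, 118 and 104 (-0.13, adjusted p = 0.783). RPL28 stood at 27.5, 41.7 and 49.6 FPKM against 52.8, 45.8 and 45.9 (0.31, adjusted p = 0.519), where vector control 1 was well below the rest.

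A few members differed strongly between single libraries of the same label. RPL29 stood at 15.9, 23.8 and 171 FPKM in vector control 1, 2 and 3 and at 21.9, 116 and 12.2 in KO 1, 2 and 3. Its highest library was 14.0 times its lowest, and the 2 high libraries were vector control 3 and KO 2, 1 of each group, which did not stand together in the histone or ribosomal shares. RPS25, known for its part in initiation at viral internal entry sites, stood at 61.7, 84.3 and 84.2 FPKM and at 147, 37.8 and 79.0, so that the highest and the lowest library were both KO (3.89 times). RPS15 stood at 20.7, 64.5 and 33.6 FPKM and at 26.4, 35.3 and 28.2, with vector control 2 alone high (3.11 times). RPL39, which lines the peptide tunnel, stood at 84.4, 113 and 111 FPKM and at 170.5, 68.7 and 78.9 (2.48 times). Its paralog row, RPL39L, was listed at 0 throughout. RPL41, the shortest ribosomal protein, stood at 211, 263 and 296 FPKM and at 403, 247 and 205. RPL15 stood at 70.3, 88.7 and 97.3 FPKM and at 122, 70.0 and 87.4. KO 1 was the highest library for RPS25, RPL39, RPL41 and RPL15. Only these first 4 members, RPL29, RPS25, RPS15 and RPL39, spanned 2 times or more over the 6 libraries, against 46.3% of all tested genes. The members had a median coefficient of variation of 13.7% in the large and 14.3% in the small subunit, against 24.8% over all tested genes. Their levels were also higher, at a median of 111 FPKM against 5.22.

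**Figure D5:**
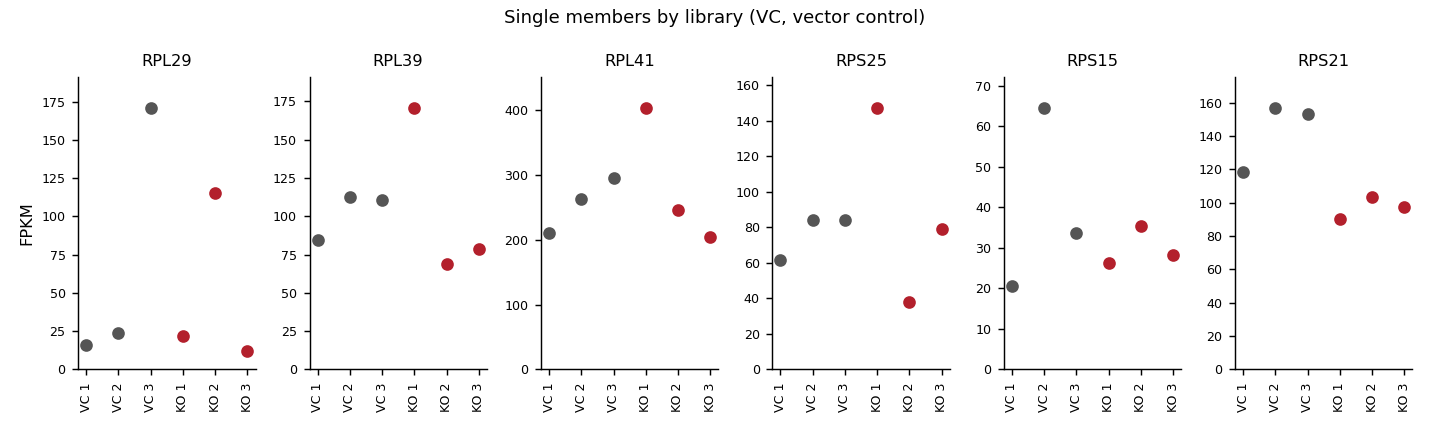
FPKM of 6 members in each library (grey, vector control; red, KO), with every axis from 0. RPL29 is high in vector control 3 and KO 2, KO 1 is the highest library for RPL39, RPL41 and RPS25, vector control 2 for RPS15, and RPS21 is lower in each KO library than in each control.

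Without vector control 1 and KO 1, the members looked different. These 2 libraries were chosen from correlations over the same tested genes. Vector control 1 lay nearer to KO 2 and 3 than to the other controls. KO 1 lay nearest its own group, but less near to KO 2 and 3 than they lay to each other. Such a choice itself favours more calls: 130 of all tested genes were called with all 6 libraries and 3575 without these 2. The adjusted p in this comparison are therefore descriptions only. In the remaining 2 vector controls against 2 KO libraries, 15 of 40 large and 12 of 28 small subunit members were called lower and 0 higher, where limma called 13.6% of all tested genes lower and 23.5% higher. The medians were then -0.29 and -0.30, against 0.10 over all tested genes. The lowest of the called members were RPS13 (log2 fold change -0.79, adjusted p = 0.00732), RPL27A (-0.74, adjusted p = 0.00965), RPS21 (-0.62, adjusted p = 0.00756), RPL39 (-0.60, adjusted p = 0.0135) and RPS27 (-0.55, adjusted p = 0.0170). In that comparison the KO libraries also had the higher histone share, 5.05 and 5.09% against 2.75 and 3.17%, so that the label and this division cannot be told apart there. Robust limma with array weights on all 6 libraries called 14 large and 11 small subunit members lower and 0 higher (all tested genes, 14.8% lower and 27% higher). Of these 25, 24 were among the 27 called without the 2 libraries. Array weights count a library less where it departs from its group, so this fit is not independent of leaving 2 libraries out. The weights are not given here, and the overlap adds no separate support. Without vector control 1 alone, limma called RPS21 (-0.67, adjusted p = 0.0233) and 0 others (all tested genes, 5.07% lower and 8.74% higher).

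The ribosomal protein genes in joined rows stood close to the members, and their values include the neighbour. The row of RPS15A had a log2 fold change of -0.17 and that of RPL36 one of 0.29. The RPL36 row was the single row in which all KO libraries lay above all controls (15.4% of all tested genes). Of the 10 rows, 0 were called (1.35% of all tested genes). The row of RPL13A stood at 61.2, 94.3 and 95.9 FPKM across the 3 controls, against 96.7, 80.7 and 78.2 across the 3 KO libraries, with vector control 1, KO 3 and KO 2 the lowest 3. The row of FAU, whose product is a ubiquitin-like protein fused to a small subunit protein, had a log2 fold change of 0.01, RPL26 of -0.04, RPL36A of 0.07 and RPL22 of 0.20. Of 5 paralogs outside the symbol rule, 0 were called, at the same share of 1.35% over all tested genes. RPL22L1, the paralog of RPL22, was chosen for mention after its values were seen: it stood at 8.15, 9.58 and 10.2 FPKM across the 3 controls, against 5.48, 3.92 and 3.51 across the 3 KO libraries (-0.97, SE 0.19, adjusted p = 0.0653). The groups did not overlap, and it missed the threshold, with adjusted p from 0.00109 to 0.293 over the alternatives. The row of RPL22 itself stood at 15.1, 17.6 and 16.7 FPKM against 17.4, 19.9 and 20.1. The other 4 paralogs, RPL7L1, RPL26L1, RPL36AL and RPS27L, had overlapping groups and log2 fold changes between -0.24 and 0.03. RACK1, the scaffold protein of the small subunit, stood at 88.7, 101 and 82.6 FPKM against 66.2, 90.2 and 91.2 (-0.15).

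In lists of genes that work with the ribosomal proteins 0 were called, and at 1.35% of all tested genes called, lists of this size hold few or no calls. Of 29 other genes listed as TOP mRNAs, such as elongation factors, 27 had a tested row of their own and 0 were called, with a median log2 fold change of -0.11 and 20 below 0 (all tested genes, 1.35% called and 40.7% below 0). Vector control 2 and 3 were both above vector control 1 in 12 of these 27, a difference from the members that was not tested. Among those without overlap were NPM1, a nucleolar chaperone, at 360.2, 252 and 262 FPKM against 192, 197 and 199 (-0.55, adjusted p = 0.195), and the importin IPO7 (-0.50, adjusted p = 0.201), both named after their values were seen, with adjusted p over the alternatives from 0.0130 to 0.443 and from 0.00575 to 0.476. Of 18 genes that regulate TOP mRNAs, 16 were tested and 0 called (median 0.19). LARP1 stood at 21.9, 22.6 and 49.4 FPKM across the 3 controls, against 47.3, 52.6 and 48.5 across the 3 KO libraries (0.75, SE 0.31, adjusted p = 0.269), with vector control 3 among the KO libraries. CNBP, which binds TOP mRNAs, stood at 132, 106 and 172 FPKM against 48.2, 67.0 and 74.6 (-1.10, SE 0.24, adjusted p = 0.0936). Its groups did not overlap, and its adjusted p ran from 0.0175 to 0.287 over the alternatives. LARP1 and CNBP were named after their values were seen, and the adjusted p of LARP1 ran from 0.0827 to 0.595 over the alternatives. Of 23 listed chaperones and importers of ribosomal proteins, 17 were tested (median -0.03), of 19 genes of ribosome quality control and recycling, 17 (median -0.07), and 0 of either list were called. Of 13 genes listed as small nucleolar RNA hosts and partners of the ribosomal stress response, 9 had no row, and 0 of the 4 tested were called (median 0.08). MDM2 lay higher in each KO library than in each control, at 5.63, 6.19 and 6.18 FPKM against 5.08, 2.89 and 3.43 (adjusted p = 0.217), and was named after its values were seen.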

How the data were processed

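Total RNA of 6 MIA PaCa-2 libraries was sequenced (3 LINC00901 KO, 3 vector control), and groups came from the sample titles. The authors deposited 1 table of FPKM, with 1 column per library. HISAT2, cutadapt and FastQC, with the hg19 build, are named per the submitters' processing notes. Not given in the sources used here: their versions, the FPKM tool, the annotation, strand use and the handling of multiply matching reads. A listed 0 may be an unmeasured value, since all 13 MT- rows were at 0.

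The test was limma 3.58.1 in R 4.3.3 (lmFit, eBayes with a mean-variance trend, two-sided) on log2(FPKM + 1), over 9624 rows with at least 1 FPKM in at least 3 libraries. SE is limma's. Fold changes on this scale understate the change of low genes. The procedure was tested on simulated data with independent noise for each gene. That simulation held no library effect shared between genes, so it does not cover the division of the libraries seen here. Members, lists and alternatives were chosen with earlier results of these data known, and lists were given no test. Members named were those with fixed roles, the 3 highest and lowest levels and 5 highest and lowest fold changes per subunit, those without overlap, and the nearest to the filter; others were named for their spread between libraries or in alternatives. Sums and shares use deposited FPKM. RefSeq gave start sequences, GENCODE 29 transcript lengths and pseudogenes. Values of a few genes are not reported here, though counts and sums over members include them.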

Additional observations from a re-analysis of the deposited data

How the results depend on the processing

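The count of members called was 0 in each subunit with pseudocounts of 0.1 and 5, without a filter, with a filter at 5 FPKM, with limma without the trend, with quantile or median scaling, with the replicate block, and with joined rows counted as members. It was 14 (large) and 11 (small) with robust limma and array weights, 15 and 12 without vector control 1 and KO 1, and 0 and 0 to 1 when single libraries were left out. The calls over all tested genes, 130, became 241 without a filter, 59 with a filter at 5 FPKM, 4020 with robust limma, 3575 without vector control 1 and KO 1, and, without single libraries, 25 (KO 3), 29 (KO 2), 39 (vector control 2), 39 (vector control 3), 121 (KO 1) and 1329 (vector control 1). The replicate block left 7: same-numbered libraries correlated at r = -0.374, -0.153 and -0.264 in their deviations from the group means, so the numbers do not pair them. Without vector control 1 and KO 1 the medians were -0.29 (large) and -0.30 (small) and the differences in share -0.73 and -0.61 percentage points. Median scaling gave medians of -0.22 and -0.23, and robust limma with array weights -0.27 and -0.28. With quantile normalization the medians were -0.01 and 0.01, and the shares differed by 0.10 and 0.02 points; without single libraries the medians stayed below 0, from -0.25 to -0.04 and from -0.23 to -0.05, while the share differences ran from -0.46 to 0.19 and from -0.43 to -0.026 points.

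Some fold changes, none of them called on all 6 libraries, changed sign. With median scaling they were RPL37 -0.027, RPL38 -0.080, RPL7A -0.077, RPS25 -0.090 and RPS26 -0.030. With quantile normalization they were RPL39 0.055, RPLP2 0.017, RPS2 0.052, RPS3 0.12, RPS3A 0.016, RPS4X 0.094 and RPS6 0.085. With robust limma they were RPL15 -0.15, RPL37 -0.023, RPL38 -0.12, RPL41 -0.23, RPL7A -0.20, RPS19 -0.056, RPS25 -0.41, RPS26 -0.040 and RPS28 -0.078. Without vector control 1 and KO 1 they were RPL15 -0.24, RPL37 -0.027, RPL38 -0.14, RPL41 -0.31, RPL7A -0.25, RPS19 -0.093, RPS25 -0.61, RPS26 -0.021 and RPS28 -0.088. Without single libraries the ranges that crossed 0 were RACK1 -0.22 to 0.0035, RPL15 -0.11 to 0.28, RPL29 -1.26 to 0.68, RPL3 -0.29 to 0.039, RPL37 -0.068 to 0.15, RPL38 -0.15 to 0.13, RPL39 -0.46 to 0.19, RPL41 -0.18 to 0.31, RPL7A -0.14 to 0.23, RPS15 -0.63 to 0.17, RPS19 -0.024 to 0.24, RPS25 -0.47 to 0.50, RPS26 -0.017 to 0.15, RPS28 -0.088 to 0.30, RPS3 -0.19 to 0.024, RPS3A -0.42 to 0.0048 and RPS6 -0.13 to 0.011. The cause was not tested. With 3 libraries per group and unknown depth, the number of libraries limits what can be separated from 0.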
